A study of Mus musculus with 41 samples.

Results

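The 10 genes described here encode antiviral effector proteins that cells make in answer to interferon: *Ifit1*, *Ifit2*, *Ifit3*, *Ifit3b*, *Isg15*, *Mx1*, *Mx2*, *Rsad2*, *Bst2* and *Ifi44*. They were taken by symbol, and all 10 were found among the 22438 genes with footprint counts and among the 55385 genes with RNA values. The members were chosen by measured footprint and mRNA values of the fibroblasts below, so what these genes did in fibroblasts is given as a description. Counts of members past the edgeR threshold in fibroblasts follow from this choice and from which members had enough counts, and nothing is read from them or from their size beside the share of all genes. In the deposited RNA values they have 32 of 142552 transcripts. In *Pelo*-/- fibroblasts the ribosome footprints of all 10 genes lay far above control, by 2.07 (*Ifit2*) to 6.40 (*Ifi44*) on the log2 scale for the 8 members other than *Mx1* and *Mx2*, which had 1 control footprint each, while in mRNA 5 members could be tested and lay between -0.81 and 0.35. *Ifit2* was called lower in that mRNA, a call that was lost with replicate numbers as a block and without either *Pelo*-/- RNA library. In *Hbs1l*-/- fibroblasts footprints and mRNA were both higher for most members. In the fibroblasts labelled *Upf2*-/- footprints were higher for all members. The test for a larger difference in footprints than in mRNA called 6 of 10 members there, beside 7.6% of all genes. That count was 3 to 8 when 1 library at a time was left out. The mRNA of *Ifit2* in the labelled *Upf2*-/- libraries was at the control level within its error. In *Hbs1l*-deficient embryos and cerebella no member passed the edgeR test, while DESeq2 called *Bst2* in embryos.

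Interferons are secreted when a cell senses foreign nucleic acid. Type I interferon binds a receptor at the cell surface and, through kinases bound to it, activates transcription factors that bind a DNA element called the interferon-stimulated response element (ISRE) upstream of many genes. The products of these genes act on steps of viral growth. The IFIT proteins bind viral RNA or one another, ISG15 is a ubiquitin-like protein that is attached to other proteins, and the MX proteins are dynamin-like GTPases. RSAD2 (viperin) makes a nucleotide that ends RNA chains, and BST2 (tetherin) holds new virus particles on the cell surface. Fibroblasts are a classical cell for studying this response. HBS1L and PELO (Pelota) release ribosomes that have stalled on an mRNA, and UPF2 acts in nonsense-mediated decay, which removes mRNAs with an early stop codon.

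Ribosome footprints were measured in 30 libraries and mRNA in 11. Embryos at E8.5 were *Hbs1l*-/- or wild type (3 libraries each, every library from 5 pooled embryos) on C57BL/6NJ. Cerebella at P14 came from 3 Tg(Atoh1-Cre); *Hbs1l* cKO mice, which carry 1 floxed and 1 null allele, and from 3 Tg(Atoh1-Cre); *Hbs1l*+/+ mice, on C57BL/6J. In cerebella the Cre acts in the granule cell lineage, so other cells of the cKO mice keep 1 copy of *Hbs1l*, the floxed allele. The paper lists these cKO mice with the C57BL/6J allele of the tRNA gene *n-Tr20* on both chromosomes. Mouse embryonic fibroblasts (MEFs) carried a tamoxifen-inducible CAG-Cre in every group, controls included, and all of them received 4-hydroxytamoxifen and had the C57BL/6J allele of the tRNA gene *n-Tr20* on both chromosomes. Each genotype (floxed and null *Hbs1l*, floxed *Pelo*, floxed *Upf2*) had 3 footprint libraries and 3 control footprint libraries sequenced in its own pool. RNA was sequenced from 3 control, 3 *Hbs1l*-/-, 2 *Pelo*-/- and 3 *Upf2*-/- cultures, with the same 3 controls for all. One embryo gave 1 MEF replicate.

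Libraries held 2634480 to 7298812 footprints on coding sequence in embryos, 10919139 to 22591768 in cerebella and 5782990 to 25607974 in MEFs, and 22713643 to 86425762 estimated counts in RNA. Fibroblast markers were abundant in every MEF library (summed level of 8 genes at least 48930 CPM, counts scaled to a common library size with TMM factors, in footprints). Control footprint libraries with the same number in the 3 pools differed by a chi-square of 1.10 to 1.18 per gene, against at least 3.91 for different numbers, so the 3 pools hold the same control cultures and the MEF comparisons share their controls. The targeted genes *Hbs1l* and *Pelo* were low in the libraries labelled as lacking them. *Hbs1l* footprints were 1.68 to 2.96 CPM in *Hbs1l*-/- MEFs against 36.7 to 44.8 CPM in their controls, and *Pelo* footprints were 2.34 to 3.43 CPM in *Pelo*-/- MEFs against 36.0 to 43.7 CPM. *Upf2* was not lower in the libraries labelled *Upf2*-/-: its footprints were 123, 127 and 129 CPM there against 55.9 to 66.2 CPM in controls, and its mRNA was 8.61 to 20.6 TPM, the length-adjusted unit of kallisto, against 3.82 to 5.63 TPM. Counts over the whole gene do not show whether an exon is missing, so these samples are called by their label throughout. The paper reports that transcripts classed as targets of nonsense-mediated decay accumulated in the RNA of its *Upf2*-/- cells. It calls this accumulation specific to those cells, which was not examined here.

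The upstream sequence of the genes is shown first, because a known control element of interferon-induced genes lies there in 6 members. RefSeq (GRCm38.p6) gives a start site for 8 of the 10 genes, in 9 windows of 300 bases that run from 250 bases before to 50 after the start. The ISRE core searched was GAAANNGAAA, on both strands, where matches may overlap. It is found in 3.44% of all 32851 windows of that length and in the windows of 6 of the 8 genes. The stretches that hold it are printed with the matching letters in capitals, 5′ to 3′ on the strand of the gene. *Isg15* has 3 overlapping matches that begin between 78 and 66 bases before the start, in chr4:156200860-156200911 on the minus strand.
Isg15: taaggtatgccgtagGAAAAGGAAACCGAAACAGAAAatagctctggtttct
The *Bst2* stretch (chr8:71537572-71537617, minus strand) has 2 overlapping matches, from 130 bases before the start.
Bst2: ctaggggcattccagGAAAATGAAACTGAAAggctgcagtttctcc
The *Rsad2* stretch (chr12:26456548-26456587, minus strand) has 1 match, read on the opposite strand, 120 bases before the start.
Rsad2: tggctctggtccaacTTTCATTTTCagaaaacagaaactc
On chromosome 19 the *Ifit* genes lie side by side on the plus strand, and *Ifit1* (chr19:34640770-34640828) has 2 matches that begin 104 and 85 bases before the start.
Ifit1: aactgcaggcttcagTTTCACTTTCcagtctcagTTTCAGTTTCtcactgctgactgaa
*Ifit3* (chr19:34583358-34583431) and *Ifit3b* (chr19:34607754-34607827) have the same 74 bases here, although the annotated starts place the first match 156 bases before the start in *Ifit3* and 188 bases before it in *Ifit3b*.
Ifit3: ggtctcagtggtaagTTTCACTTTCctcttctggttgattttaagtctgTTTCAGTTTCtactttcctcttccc
Ifit3b: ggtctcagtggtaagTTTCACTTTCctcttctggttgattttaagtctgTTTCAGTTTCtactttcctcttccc
Both *Ifit2* windows and the *Ifi44* window do not hold these letters. The core of the gamma-activated site, TTCNNNGAA, which reads the same on both strands, is in 8.3% of all windows, in 1 of the 2 *Ifit2* windows and in that of *Bst2*. *Mx1* and *Mx2* have no entry among these windows.

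The *Ifit* genes lie on chromosome 19 of GRCm38, in the order *Ifit2* (chr19:34550694-34576419), *Ifit3* (chr19:34583531-34588731), *Ifit3b* (chr19:34607970-34613401) and *Ifit1* (chr19:34640871-34650009). *Mx1* (chr16:97447035-97462907, minus strand) and *Mx2* (chr16:97535308-97560900, plus strand) are neighbours on chromosome 16. *Isg15* is at chr4:156199424-156200818, *Bst2* at chr8:71534255-71537456, *Rsad2* at chr12:26442746-26456452 and *Ifi44* at chr3:151730922-151749960, all on the minus strand. Footprints were counted over the coding exons of each gene. *Ifit3* and *Ifit3b* have coding sequences of the same length, 1209 bases, which differ at 11 positions (99.1% identity). Of the 1182 windows of 28 bases, about the length of a footprint, in either one, 947 occur in both, so the split of footprints between this pair is uncertain. *Mx1* and *Mx2* share 319 windows, which is 17.2% of those in *Mx1* and 16.4% of those in *Mx2*. *Ifit1* shares 19.4% of its windows with other genes, mostly *Ifit1bl2*, and *Isg15* shares 18.9% with a single other gene. *Ifit2*, *Rsad2*, *Bst2* and *Ifi44* share none.

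The footprints of all 10 members were high in *Pelo*-/- MEFs. *Isg15* had 642, 516 and 804 CPM in the 3 *Pelo*-/- libraries and 9.14, 4.91 and 13.9 CPM in their controls. The lowest *Pelo*-/- library was thus well above the highest control, and the log2 fold change was 6.11 (SE 0.28). *Ifit1*, which binds RNA with an incomplete cap, had 338, 221 and 454 CPM against 5.07, 3.52 and 8.08 CPM in controls, a log2 fold change of 5.91 (SE 0.32). *Ifit3*, its partner protein, had 54.3, 34.8 and 85.5 CPM against 0.596, 0.648 and 1.51 CPM, and *Ifit3b* had 14.5, 9.86 and 20.8 CPM against 0.298, 0.0926 and 0.303 CPM. Their log2 fold changes of 5.96 (SE 0.43) and 5.97 (SE 0.44) were alike, as far as footprints can be split between such near copies. *Ifit2* differed least, with 47.5, 35.2 and 57.0 CPM against 10.2, 10.5 and 11.9 CPM and a log2 fold change of 2.07 (SE 0.17). Its groups did not overlap either. In bulk samples more cells that express a gene and more transcript per cell cannot be told apart.

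*Bst2* was already well translated in control MEFs, with 22.6, 24.2 and 33.4 CPM, and had 518, 475 and 583 CPM in *Pelo*-/- MEFs, a log2 fold change of 4.27 (SE 0.14). *Ifi44*, a cytoplasmic protein induced by interferon, had 166, 129 and 194 CPM against 1.99, 1.11 and 2.62 CPM, a log2 fold change of 6.40 (SE 0.23). For *Rsad2* the *Pelo*-/- libraries had 35.3, 21.6 and 41.5 CPM and the controls 1.09, 0.185 and 0.707 CPM, a log2 fold change of 5.61 (SE 0.39). The MX genes were near the limit of detection in controls. *Mx2* had 168, 114 and 291 footprints in *Pelo*-/- MEFs and 0, 0 and 1 in controls, a ratio of 343 with a 95% counting interval from 61.3 to 13600. The same control cultures had 2, 3 and 6 *Mx2* footprints in the *Upf2* pool. Over all alternatives the *Mx2* log2 fold change, 8.01 in the main fit, ranged from 6.31 to 10.29. *Mx1* had 56, 21 and 101 against 0, 0 and 1, a ratio of 107 with an interval from 18.9 to 4230. As background, *Mx1* of C57BL/6 mice carries a deletion and makes no working protein, so its footprints say only that the transcript was translated. Of the 10 members tested, 10 were called higher in *Pelo*-/- MEFs (edgeR, adjusted p at most 0.05), beside 22.9% of all 12486 genes tested. As in every fibroblast comparison, this count follows from how the genes were chosen.

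**Figure D1:**
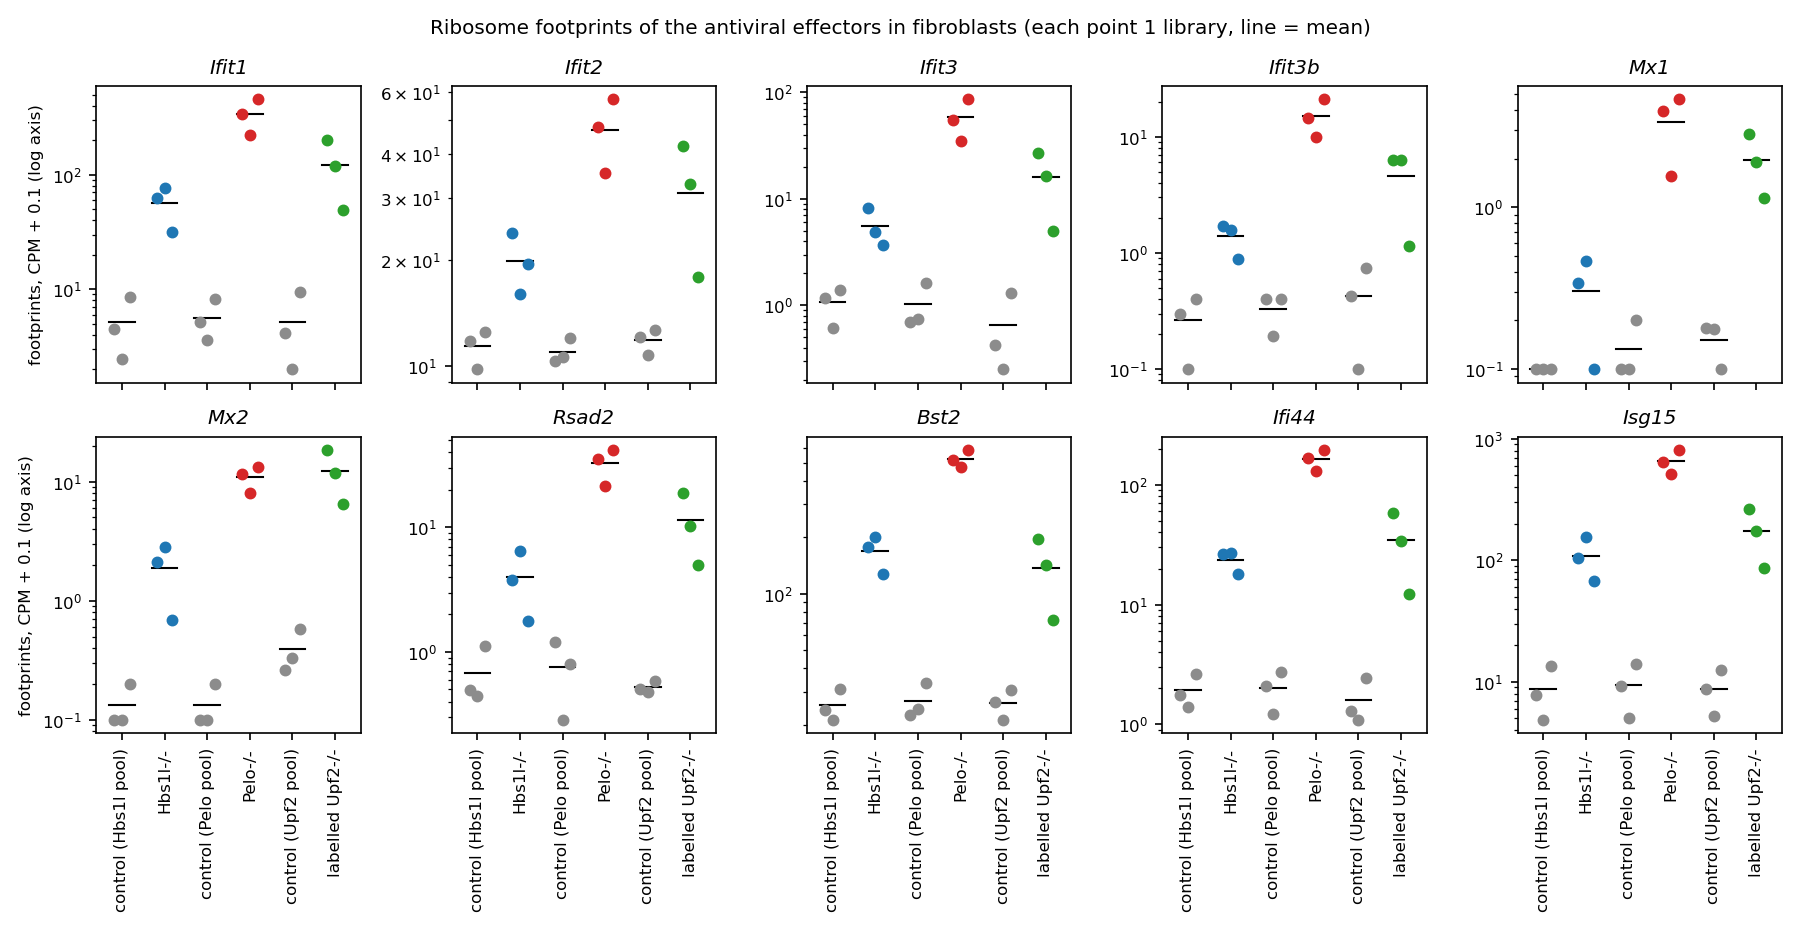
Footprints of the 10 members in the 18 MEF libraries, in CPM plus 0.1 on a log axis, with 1 point for each library and a line at the group mean. Control libraries (grey) are shown for each pool, and the *Pelo*-/- libraries of *Isg15* sit between 516 and 804 CPM while all control libraries are at or below 13.9 CPM.

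Per kilobase of coding sequence, *Bst2* was the most densely covered member in the *Pelo* pool controls (51.8 CPM per kb), followed by *Isg15* (19.3), *Ifit2* (7.71) and *Ifit1* (4.00). *Isg15* came first in *Pelo*-/- MEFs (1354 CPM per kb), followed by *Bst2* (1018), *Ifit1* (243), *Ifi44* (129) and *Ifit3* (48.1), while *Ifit2* was at 33.0. Together the 10 members took 0.124% to 0.196% of all footprints in *Pelo*-/- MEFs and 0.00383% to 0.0064% in their controls.

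In *Hbs1l*-/- MEFs the same genes were higher by less. *Isg15* had 104, 156 and 67.8 CPM against 7.65, 4.76 and 13.3 CPM in controls, a log2 fold change of 3.69 (SE 0.31). *Bst2* had 178, 200 and 127 CPM against 23.8, 21.2 and 31.0 CPM, a log2 fold change of 2.75 (SE 0.16). *Ifi44* had 26.2, 26.9 and 17.9 CPM against 1.67, 1.30 and 2.52 CPM, and here its log2 fold change of 3.71 (SE 0.24) was the largest among the members tested. For *Ifit1* the values were 62.6, 76.8 and 31.7 CPM against 4.42, 2.33 and 8.46 CPM, for a log2 fold change of 3.51 (SE 0.35). The groups of these 4 genes did not overlap. *Ifit3* differed by 2.56 (SE 0.39), *Rsad2* by 2.68 (SE 0.53) and *Ifit2* by 0.85 (SE 0.15) on the same scale. The *Rsad2* value was 2.24 without *Hbs1l*-/- replicate 2 and 3.3 without control replicate 3. *Ifit2* again was the member that differed least, with 23.8, 15.9 and 19.4 CPM against 11.7, 9.69 and 12.4 CPM. The 3 remaining members had too few footprints for the test. *Ifit3b* had 20, 8 and 8 footprints against 2, 0 and 3, and *Mx2* had 25, 15 and 6 against 0, 0 and 1, a ratio of 53.2 with an interval from 9.09 to 2150. *Mx1* had 3, 2 and 0 footprints against 0, 0 and 0, which allows no fold. Of the 7 members tested, 7 were called higher, beside 17.4% of 11984 genes.

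In the libraries labelled *Upf2*-/- the footprints of *Isg15* were 264, 173 and 85.6 CPM against 8.61, 5.11 and 12.4 CPM in controls, a log2 fold change of 4.38 (SE 0.39). *Ifit1* had 200, 119 and 48.7 CPM against 4.02, 1.91 and 9.31 CPM, a log2 fold change of 4.65 (SE 0.52). *Bst2* had 196, 142 and 72.7 CPM against 26.2, 21.1 and 30.4 CPM, a log2 fold change of 2.45 (SE 0.28). Replicate 3 was the lowest of the labelled libraries for all 10 members. *Mx2* had 100, 117 and 43 footprints against 2, 3 and 6, and its log2 fold change of 5.36 (SE 0.48) was the largest. *Mx1* had 15, 18 and 7 footprints against 1, 1 and 0, a ratio of 36.7 with an interval from 9.51 to 313. The log2 fold changes of *Ifit3* (4.85, SE 0.65), *Rsad2* (4.74, SE 0.52), *Ifi44* (4.56, SE 0.53) and *Ifit3b* (3.84, SE 0.72) lay close together, and *Ifit2* again was lowest at 1.44 (SE 0.24). All 10 members tested were called higher, beside 22.3% of 12166 genes.

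For 9 members the mean footprint level was highest in *Pelo*-/- MEFs, and the exception was *Mx2*, with a mean of 10.9 CPM (SD 2.63, n = 3) there and 12.1 CPM (SD 5.91, n = 3) in the libraries labelled *Upf2*-/-. The ranges of *Mx2* in these groups overlap, and so do those of *Ifit2* (35.2 to 57.0 CPM in *Pelo*-/- and 17.8 to 41.9 CPM in the labelled *Upf2*-/- libraries) and of *Mx1* (1.47 to 4.55 CPM and 1.04 to 2.73 CPM). *Bst2* did not differ beyond its spread between *Hbs1l*-/- MEFs (168 CPM, SD 37.6, n = 3) and the labelled *Upf2*-/- libraries (137 CPM, SD 61.9, n = 3). These groups were sequenced in different pools and are set side by side without a test. Over the members tested the median log2 fold change of footprints was 2.75 in *Hbs1l*-/-, 5.97 in *Pelo*-/- and 4.60 in labelled *Upf2*-/- MEFs, beside -0.007, 0.004 and 0.001 over all genes tested. The first is over 7 members and the others over 10, and the first was 3.64 without control replicate 3 and 3.22 without a filter on low counts.

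The mRNA of the members was ordered differently. In *Hbs1l*-/- MEFs *Isg15* mRNA was 118, 167 and 78.2 TPM against 4.96, 6.68 and 9.17 TPM in the controls, a log2 fold change of 4.04 (SE 0.29). *Bst2* mRNA was 145, 161 and 93.7 TPM against 10.8, 13.9 and 17.4 TPM, a log2 fold change of 3.20 (SE 0.21). For *Ifit1* the values were 11.4, 17.4 and 6.73 TPM against 0.393, 1.02 and 1.21 TPM, a log2 fold change of 3.68 (SE 0.38). None of these groups overlapped. *Ifi44*, *Ifit3*, *Ifit3b* and *Rsad2* differed by 3.97 (SE 0.48), 3.14 (SE 0.28), 3.22 (SE 0.44) and 3.29 (SE 0.46) on the log2 scale. *Mx2* had 38.8, 208 and 44 estimated counts against 0, 2 and 3, and *Mx1*, which had 10.2, 73.1 and 10 against 2, 0 and 5, was too low for the test. *Ifit2* mRNA was 1.58, 2.51 and 2.11 TPM against 1.15, 1.60 and 1.71 TPM; the groups overlapped, and the log2 fold change was 0.28 (SE 0.20). Of the 9 members tested, 8 were called higher, beside 12.7% of 15318 genes.

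The mRNA of 5 members could be tested in *Pelo*-/- MEFs, and 4 of them had a negative log2 fold change. *Isg15* mRNA was 6.32 and 4.03 TPM in the 2 *Pelo*-/- libraries, the first within and the second below the control range of 4.96 to 9.17 TPM, and its log2 fold change was -0.57 (SE 0.28). *Ifit1* mRNA was 0.88 and 0.555 TPM, also within the control range of 0.393 to 1.21 TPM. *Ifit3* mRNA was 0.967 and 0.836 TPM against 1.05, 1.11 and 1.32 TPM, and *Bst2* mRNA was 21.5 and 18.1 TPM against 10.8, 13.9 and 17.4 TPM. *Bst2* was the only one of the 5 tested members with a higher level, by 0.35 (SE 0.16) on the log2 scale. *Ifit2* mRNA was 0.995 and 1.02 TPM against 1.15, 1.60 and 1.71 TPM, and was called lower, with a log2 fold change of -0.81 (SE 0.17). That made 1 call among 5 members tested, beside 32.1% of 14705 genes called in either direction. With replicate numbers as a block, or without either *Pelo*-/- library, the count was 0. Without control replicate 3 it was 2, of which *Bst2* was called higher. The other 5 members were too low in both groups for the test. *Ifi44* had 6 and 4.00 estimated counts (0.125 and 0.0832 TPM) in *Pelo*-/- MEFs. Its controls had 3, 6.00 and 30.2 (0.0535, 0.102 and 0.259 TPM), so the groups overlapped in TPM. *Mx2* had 1 and 2 estimated counts against 0, 2 and 3. *Mx1* had 5 and 5 against 2, 0 and 5, which is 0.0825 and 0.0897 TPM against at most 0.0426 TPM, without overlap. *Ifit3b* (0.199 and 0.143 TPM against 0.0821 to 0.259 TPM) and *Rsad2* (0.208 and 0.111 TPM against 0.0278 to 0.197 TPM) overlapped with controls. All 10 members together made up 0.00251% to 0.00313% of the RNA (by TPM) in *Pelo*-/- MEFs and 0.00186% to 0.00315% in controls.

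**Figure D2:**
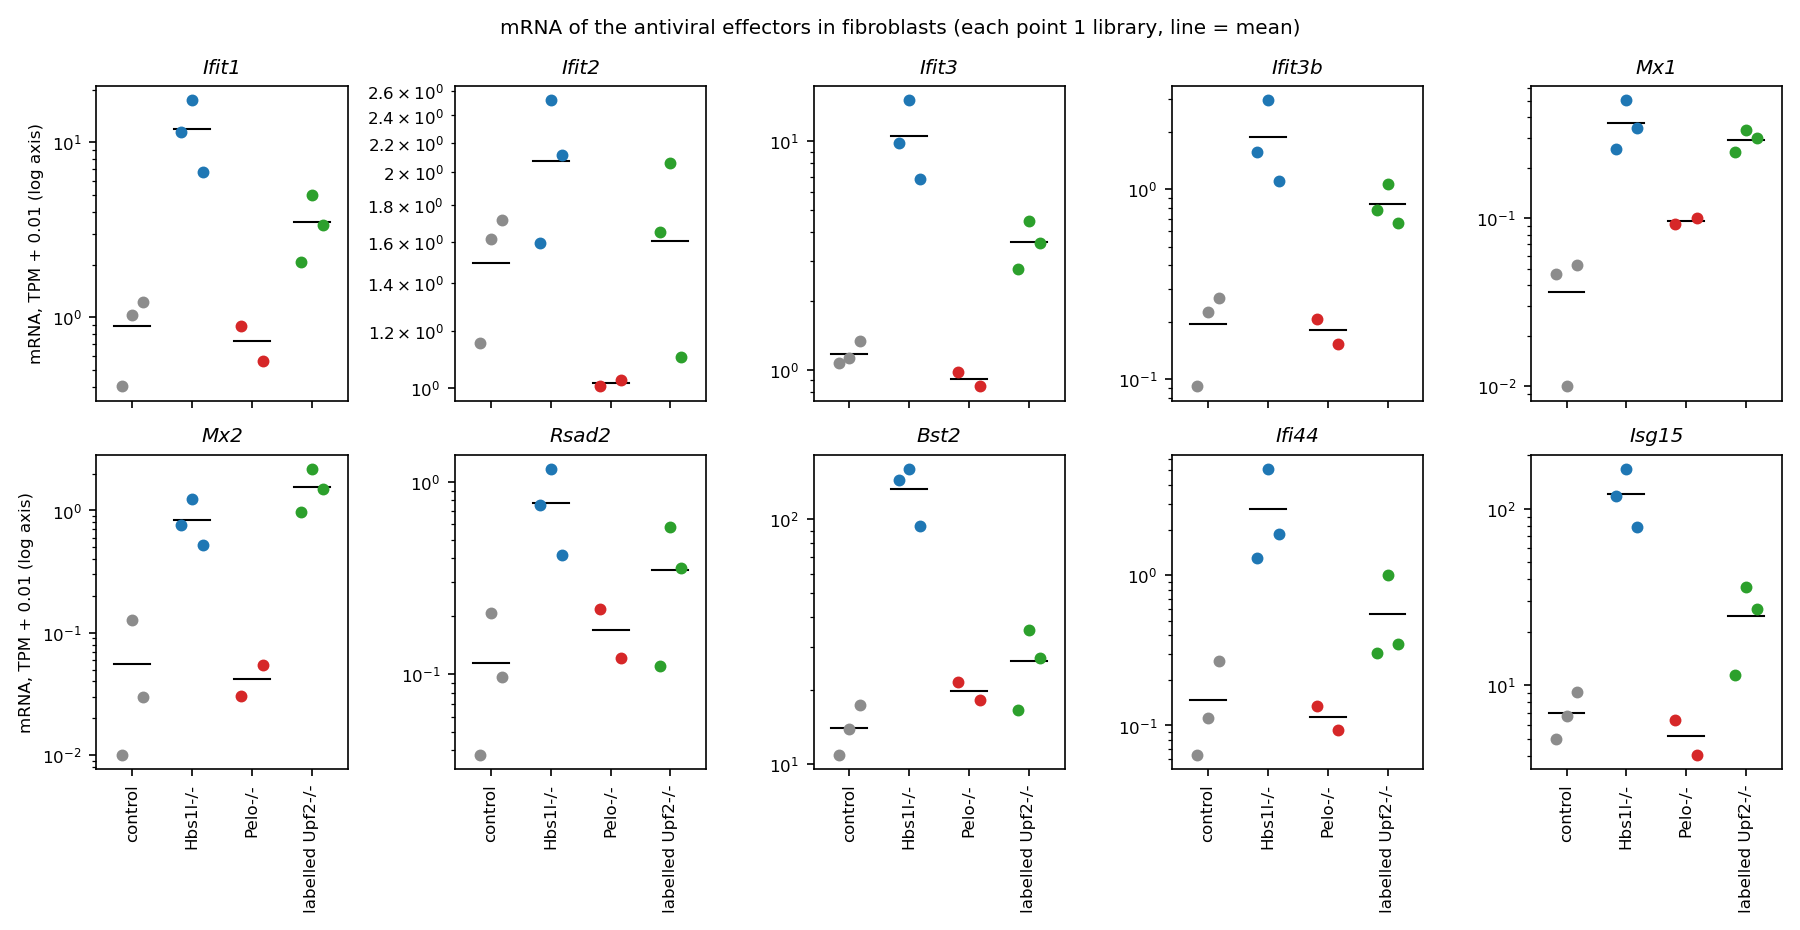
mRNA of the 10 members in the 11 MEF RNA libraries, in TPM plus 0.01 on a log axis, with 1 point for each library and a line at the group mean. The *Isg15* points of *Pelo*-/- MEFs (6.32 and 4.03 TPM) lie within and just below the controls (4.96 to 9.17 TPM), whereas those of *Hbs1l*-/- MEFs lie between 78.2 and 167 TPM.

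The libraries labelled *Upf2*-/- lay in between. *Isg15* mRNA was 11.5, 35.8 and 26.9 TPM, above the control range of 4.96 to 9.17 TPM, and the log2 fold change was 1.84 (SE 0.35). *Ifit1* and *Ifit3* differed by 1.99 (SE 0.35) and 1.64 (SE 0.21), and *Ifi44* by 1.78 (SE 0.45). *Mx2* stood apart with 48.6, 234.5 and 169.7 estimated counts against 0, 2 and 3, a log2 fold change of 6.06 (SE 0.57) that depends on the small counts of the controls. *Mx1* had 13.6, 39.8 and 30.2 estimated counts against 2, 0 and 5. The ranges of *Bst2* (16.5 to 35.2 TPM against 10.8 to 17.4 TPM) and *Rsad2* overlapped those of the controls. *Ifit2* mRNA did not differ beyond its error (0.01, SE 0.19). Of the 10 members tested, 9 were called higher, beside 13.2% of 15983 genes, and the count was 6 without labelled *Upf2*-/- replicate 2 or without control replicate 2.

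The difference between footprints and mRNA was taken as translation efficiency (TE), the change in footprints beyond the change in mRNA, from the interaction of assay and genotype in a single fit. In *Pelo*-/- MEFs it was 6.73 (SE 0.46) for *Isg15*, 6.44 (SE 0.57) for *Ifit1*, 3.93 (SE 0.23) for *Bst2* and 2.89 (SE 0.26) for *Ifit2* on the log2 scale. Values for *Ifi44* (7.01, SE 0.66), *Mx1* (4.63, SE 1.54), *Mx2* (7.58, SE 1.45), *Rsad2* (4.71, SE 0.79) and *Ifit3b* (6.30, SE 0.75) rest on few RNA counts, and these 5 members could not be tested in RNA alone and entered this fit through their footprints. The fit called 10 of 10 members higher in TE, beside 21.9% of 13701 genes. In the libraries labelled *Upf2*-/- the TE difference was 2.55 (SE 0.59) for *Isg15*, 3.22 (SE 0.75) for *Ifit3*, 1.52 (SE 0.41) for *Bst2* and -0.64 (SE 0.99) for *Mx2*. There 6 of 10 members were called higher, beside 7.6% of 13302 genes, and 3 to 8 were called when 1 library at a time was left out. The count was 3 without labelled *Upf2*-/- footprint replicate 1, without control footprint replicate 2 and without RNA control replicate 3. In *Hbs1l*-/- MEFs the TE difference was -0.32 (SE 0.50) for *Isg15*, -0.42 (SE 0.29) for *Bst2* and 0.57 (SE 0.27) for *Ifit2*, with a median of -0.22 over 9 members. By edgeR 0 members were called, beside 0.0152% of 13146 genes, where 1 member had an unadjusted p below 0.05 and DESeq2 called 0.

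**Figure D3:**
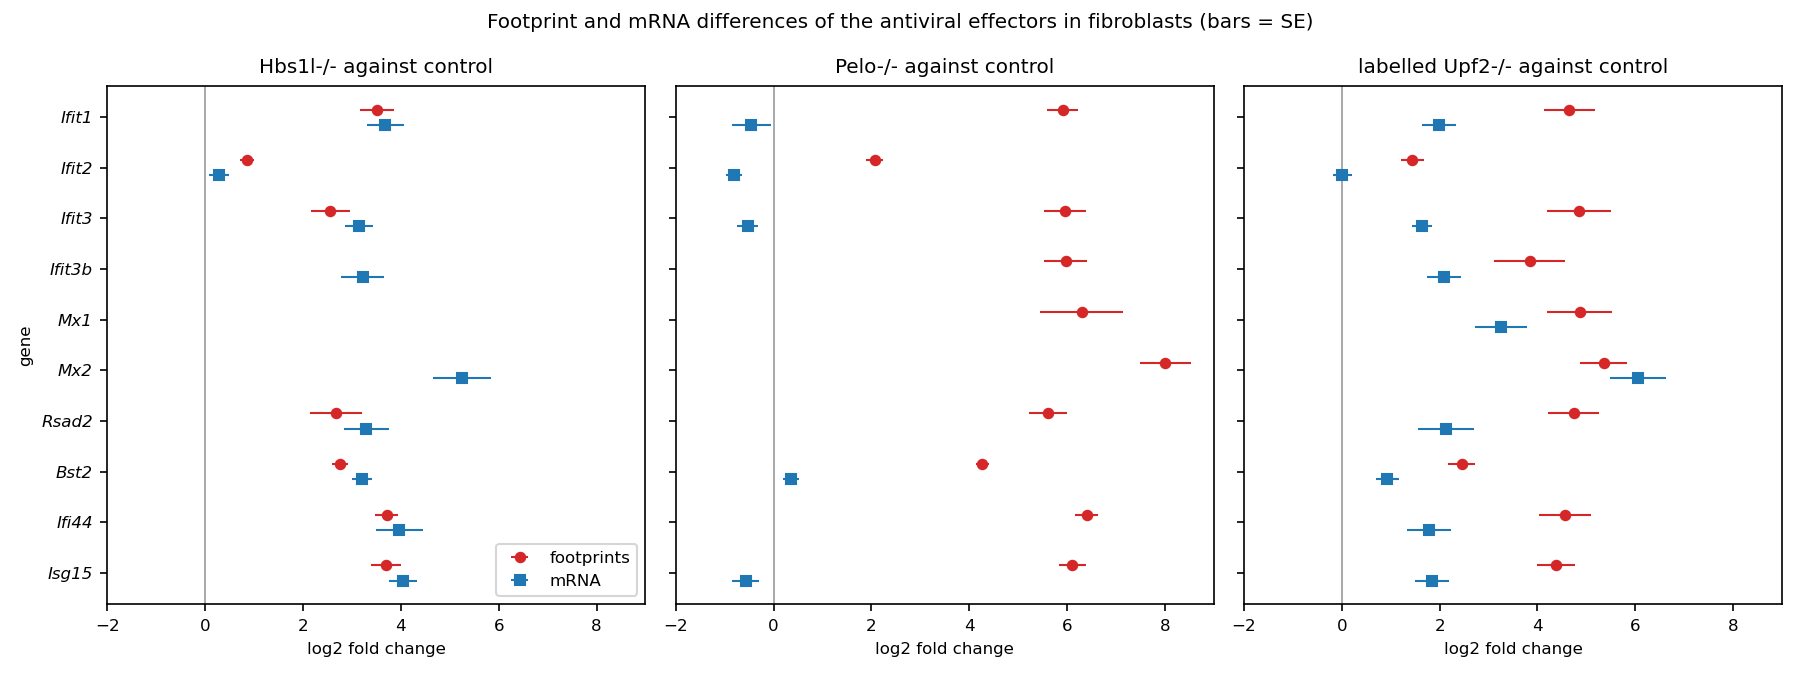
Log2 fold change against control of footprints (circles) and mRNA (squares) for each member that was tested, in 1 panel for each MEF genotype, with bars of 1 SE. The symbols lie close together in *Hbs1l*-/- MEFs, and in *Pelo*-/- MEFs footprints are at 2.07 to 8.01 while mRNA is at -0.81 to 0.35.

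Footprints and RNA came from separate cultures, libraries and sequencing batches, and the replicate numbers do not tie a footprint library to an RNA library. Over the genes measured in both assays, libraries of a genotype with the same number did not deviate together as a rule (correlations from -0.108 to 0.4 over the 3 genotypes and the controls). A difference between these cultures and a difference in translation therefore cannot be told apart in the TE values. *Pelo* itself was low in both assays (0.0698 and 0.435 TPM in RNA against 14.8 to 17.5 TPM).

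Other genes of the interferon pathway are given from fixed lists. Of 78 other pathway genes that were listed (interferons, receptors, sensors, transcription factors, regulators, ISG15 conjugation and other effectors), 57 could be tested in *Pelo*-/- footprints, where 48 were called higher and 2 lower (edgeR, adjusted p at most 0.05), with a median log2 fold change of 2.75 beside 0.004 over all genes tested, of which 22.9% were called higher. In *Hbs1l*-/- footprints 42 of 57 were called higher (17.4% of all genes) and 1 lower, and in the libraries labelled *Upf2*-/- 40 were called higher (22.3% of all genes) and 2 lower. In RNA, 39 of 57 were called higher in *Hbs1l*-/- MEFs (12.7% of all genes) and 19 of 56 in those labelled *Upf2*-/- (13.2% of all genes), where 2 were called lower. In *Pelo*-/- RNA 5 of 53 were called higher and 8 lower, a share below the 32.1% of all genes called in either direction. Among the transcription factors, all 8 tested were called higher in *Pelo*-/- footprints, with a median log2 fold change of 2.86, while the median in *Pelo*-/- RNA was 0.14. These lists were also chosen with fibroblast results known. *Irf7*, which drives interferon transcription, had 63.2 CPM of footprints (SD 15.1, n = 3) in *Pelo*-/- MEFs and 1.05 CPM (SD 0.405, n = 3) in their controls. *Usp18*, which removes ISG15 from proteins and dampens the receptor, had 221 CPM of footprints (SD 36.1, n = 3) there and 1.98 CPM (SD 1.23, n = 3) in controls, while its mRNA was 0.663 TPM (SD 0.195, n = 2) and 0.618 TPM (SD 0.0610, n = 3). Of the receptors and their kinases, 2 of 5 were called higher in *Pelo*-/- footprints, beside 22.9% of all genes, with a median log2 fold change of 0.25.

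Interferon genes themselves were nearly without reads, apart from *Ifnz* in RNA. Among 20 type I and III interferon genes, *Ifnb1*, which encodes interferon beta, had 6, 7 and 20 footprints in *Pelo*-/- MEFs and *Ifna4* had 4, 0 and 9, while all control MEF footprint libraries had 0 of either. *Hbs1l*-/- MEFs had 1, 0 and 0 *Ifnb1* footprints and those labelled *Upf2*-/- had 0, 0 and 2. A count of 0 allows up to 3 counts in a library. In RNA, *Ifnb1* had 0 estimated counts in both *Pelo*-/- libraries and 0, 4 and 0 in *Hbs1l*-/- MEFs. *Ifnz* had 158, 190 and 248 in RNA labelled *Upf2*-/- against 17, 6 and 24 in controls, and no footprint in any library. The 1 interferon gene with enough counts for the test in that RNA was called higher by edgeR. Its log2 fold change was 3.35, and 13.2% of all genes were called higher there.

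Within a group the members varied together. In *Pelo*-/- footprints replicate 3 was the highest and replicate 2 the lowest library for all 10 members, and in the labelled *Upf2*-/- footprints replicate 1 was the highest for 9. In *Hbs1l*-/- footprints replicate 2 was the highest for 7. In the RNA of *Hbs1l*-/- and labelled *Upf2*-/- MEFs replicate 2 was the highest for all 10. Control footprint replicate 3 was the highest for 9 members in each pool, which are the same cultures. Control RNA replicate 3 was the highest for 8 members. Over the 18 MEF footprint libraries the correlation between members, on log2(CPM + 1), had a median of 0.95 and ranged from 0.83 (*Mx1* with *Bst2*) to 0.995 (*Ifit1* with *Isg15*). Among 10064 other genes with a mean of at least 5 CPM, those most like the mean of the members were *Eif2ak2* (Pearson r = 0.996), *Slfn5* (0.995), *Cmpk2* (0.992), *Irgm2* (0.992) and *Iigp1* (0.992). *Eif2ak2*, the RNA-activated kinase PKR, had a mean of 33.5 CPM in controls, 64.4 in *Hbs1l*-/-, 140 in *Pelo*-/- and 95.9 CPM in the labelled *Upf2*-/- libraries. *Cmpk2*, which lies next to *Rsad2* and encodes a mitochondrial nucleotide kinase, had means of 0.766, 6.40, 37.9 and 13.1 CPM. These libraries share controls and fall into few groups, so the correlations describe the groups as much as the genes.

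MEF cultures can hold blood cells, which also express these genes. Of 11 macrophage and leukocyte markers, 9 had footprints in MEFs. Their summed level was 439 to 635 CPM in *Pelo*-/- MEFs, 197 to 263 CPM in *Hbs1l*-/- MEFs and 151 to 195 CPM in those labelled *Upf2*-/-, against 117 to 158 CPM over the controls. In RNA it was 104 to 162 TPM in *Pelo*-/- MEFs, 131 to 179 TPM in *Hbs1l*-/- MEFs, 59.2 to 128 TPM in those labelled *Upf2*-/- and 66.3 to 109 TPM in controls. The part of these cells in the results was not tested. Of the 4 plasmacytoid dendritic cell markers, *Siglech* and *Ccr9* had no footprint in any MEF library, and the summed level of the list was 96.6 to 112 CPM in *Pelo*-/- MEFs against 75.4 to 82.3 CPM, 83.7 to 97.9 CPM in *Hbs1l*-/- MEFs against 75.2 to 80.2 CPM, and 68.7 to 77.2 CPM in those labelled *Upf2*-/- against 73.9 to 83.4 CPM. Endothelial markers (6 genes) were lower without overlap in footprints of each genotype, at 28.3 to 37.3 CPM in *Pelo*-/-, 42.5 to 52.5 CPM in *Hbs1l*-/- and 54.3 to 67.2 CPM in labelled *Upf2*-/- MEFs against 87.4 to 119 CPM over the controls. In RNA the endothelial list was lower without overlap in *Hbs1l*-/- MEFs (6.68 to 7.9 TPM against 16.1 to 22.15 TPM in controls). It overlapped with controls in *Pelo*-/- MEFs (17.3 to 20.2 TPM) and in those labelled *Upf2*-/- (10.65 to 17.3 TPM). The decidua list (4 genes) was lower too, at 281 to 465 CPM over the mutant libraries against 516 to 712 CPM over the controls. Its RNA level was 265 to 475 TPM over the mutant libraries against 481 to 507 TPM in controls. The microglia list (6 genes) was higher in *Pelo*-/- footprints (232 to 313.5 CPM against 206 to 225 CPM), in *Hbs1l*-/- footprints (233 to 254 CPM against 209.5 to 221 CPM) and in *Hbs1l*-/- RNA (58.1 to 80.4 TPM against 37.4 to 49.99 TPM), each without overlap. The part of these lists in the results was not tested either.

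The mRNA came mainly from transcripts that the deposited annotation classes as protein coding. For 8 members the coding transcripts made up at least 50% of the gene's TPM in every library with reads, and for *Isg15*, *Ifit1*, *Ifit2*, *Ifit3* and *Ifit3b* these are the only transcripts annotated. The MX genes differed. *Mx1* has 12 transcripts, of which 3 are coding, and these held 26.2% of its TPM on average in *Hbs1l*-/- MEFs and 0.507% in those labelled *Upf2*-/-, where the leading transcript is classed as a processed transcript. For *Mx2* a single transcript, classed as a polymorphic pseudogene, held 92.2% of the gene's TPM in *Hbs1l*-/- MEFs and 83.1% in those labelled *Upf2*-/-. These shares rest on few estimated counts per library.

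Embryos and cerebella with *Hbs1l* deletions were also compared with their controls. The members were chosen with earlier results of these data known, so the tests below are not taken as independent of that choice. In E8.5 embryos 2 of the 10 members, *Bst2* and *Ifit2*, had enough footprints for the test. *Bst2* had 46.8, 47.9 and 53.0 CPM in *Hbs1l*-/- embryos and 34.9, 27.9 and 27.0 CPM in wild type, so the groups did not overlap. Its log2 fold change was 0.71 (SE 0.18, edgeR adjusted p = 0.0558), which misses the threshold. It was called by DESeq2 (adjusted p = 0.0252), by edgeR without a filter on low counts (adjusted p = 0.0241) and by edgeR without *Hbs1l*-/- replicate 1 (adjusted p = 0.00833), and leaving out any other library gave an edgeR adjusted p from 0.129 to 0.296. With replicate numbers as a block edgeR also called *Bst2* (adjusted p = 0.038), although these numbers did not pair the samples. Trophoblast markers, which a dissection of the embryo can carry along, also differed (127 to 845 CPM summed over 7 genes against 27.3 to 45.5 CPM), as did primitive erythroid markers (2479 to 6829 CPM against 10220 to 13170 CPM), while endothelial (378 to 517 CPM against 315 to 331 CPM) and microglia (76.5 to 101 CPM against 62.3 to 69.1 CPM) lists were higher and cardiomyocyte markers lower (181 to 207 CPM against 311 to 494 CPM). The part of these lists in the *Bst2* value was not tested. *Ifit2* had 4.53, 4.99 and 4.01 CPM against 3.12, 2.58 and 3.86 CPM, a log2 fold change of 0.51 (SE 0.41, edgeR adjusted p = 0.518). With edgeR 0 of 2 members were called, beside 1.87% of 11416 genes, with 1 at an unadjusted p below 0.05 and 1 by DESeq2. *Ifit1* and *Ifit3* had no footprint in wild-type embryos, and *Ifit1* had 1, 1 and 0 in *Hbs1l*-/- embryos.

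In P14 cerebella *Hbs1l* footprints were 10.6 to 12.7 CPM in cKO mice against 30.8 to 37.0 CPM in controls. *Isg15* had 1.92, 1.62 and 2.72 CPM in cKO cerebella and 2.17, 5.18 and 2.26 CPM in controls, with overlapping ranges and a log2 fold change of -0.60 (SE 0.38, edgeR adjusted p = 0.543). *Rsad2* had 1.19, 1.91 and 1.20 CPM against 2.65, 3.16 and 1.73 CPM, a log2 fold change of -0.82 (SE 0.33, edgeR adjusted p = 0.338). *Bst2* had 7.18, 6.62 and 10.2 CPM against 8.55, 8.18 and 8.35 CPM, a log2 fold change of -0.04 (SE 0.19, edgeR adjusted p = 0.941). Of the 8 members tested, *Ifit2* alone had a value above 0 (0.41, SE 0.29, edgeR adjusted p = 0.589). The ranges of all 8 overlapped between the groups. EdgeR called 0 of 8, beside 0.0624% of 14430 genes, with 1 member at an unadjusted p below 0.05 and 0 by DESeq2. Granule neurons are most of the cells of this tissue, and their markers (2218 to 2708 CPM over 5 genes against 2164 to 3684 CPM) overlapped between the groups, as did those of microglia (228 to 268 CPM over 6 genes against 186 to 240 CPM). Purkinje cell markers were lower in cKO cerebella (2829 to 3152 CPM over 3 genes against 3922 to 5771 CPM) without overlap. Macrophage and leukocyte markers (122 to 135.5 CPM over 11 genes against at most 118 CPM) and the plasmacytoid dendritic cell list (227 to 238 CPM over 4 genes against 197 to 210.3 CPM) were higher without overlap, and the part of these cells in the results was not tested.

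**Figure D4:**
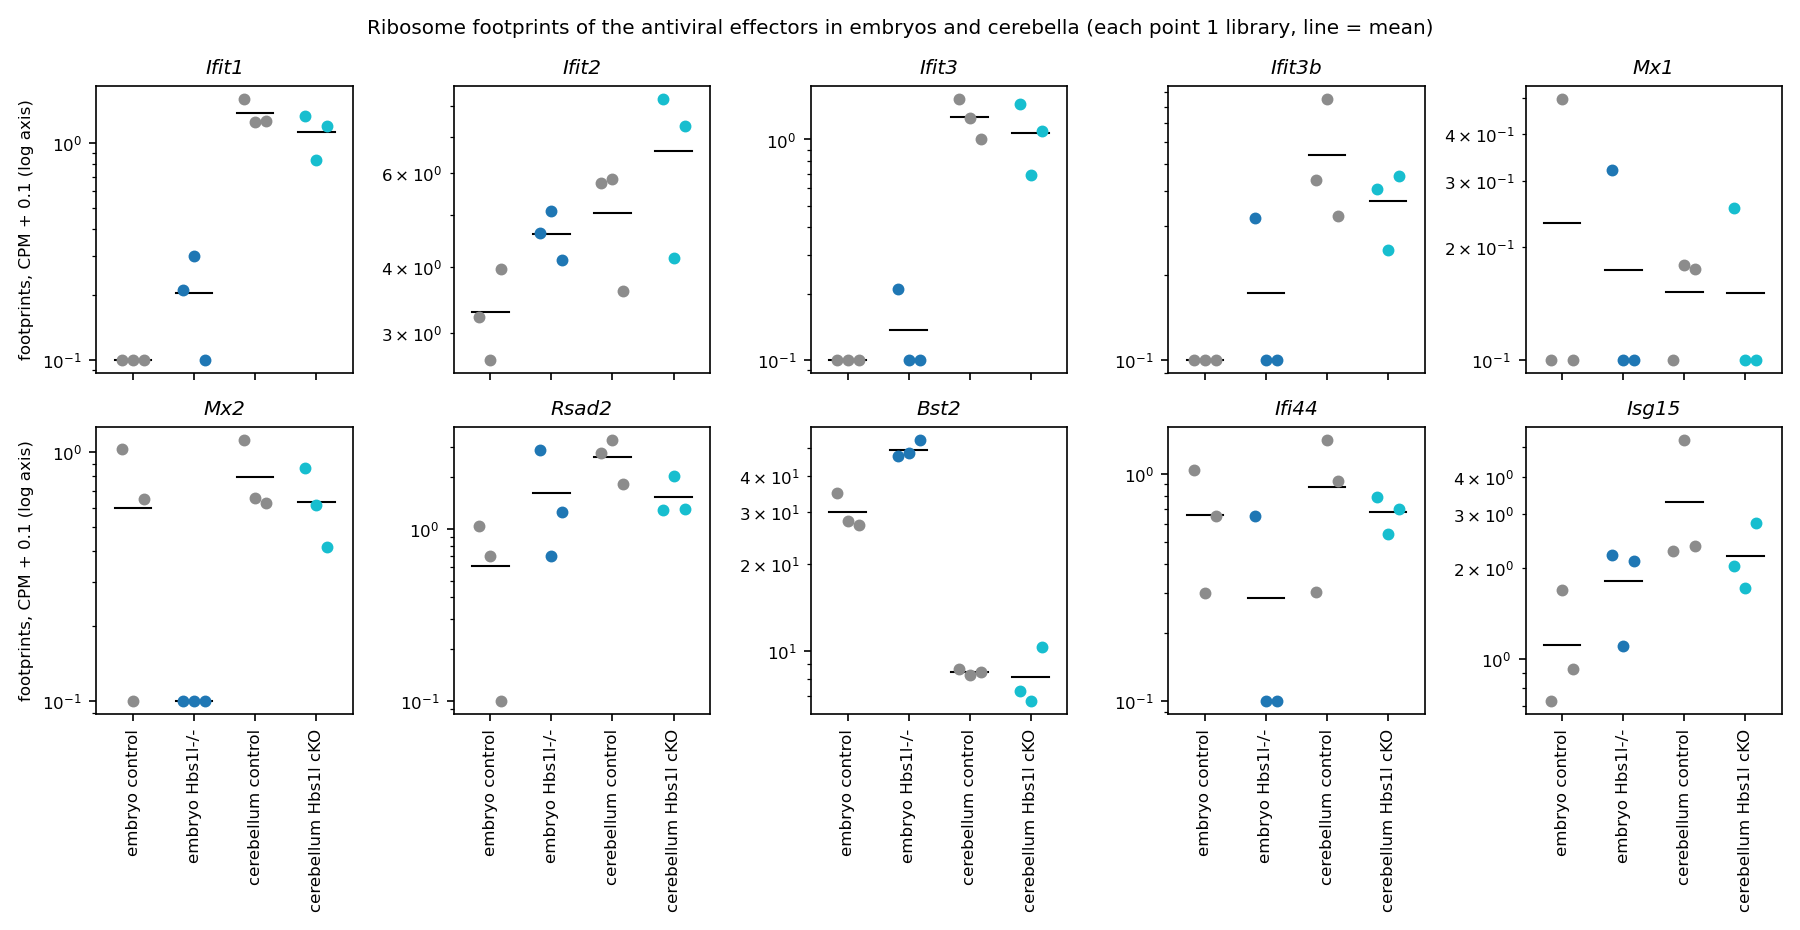
Footprints of the 10 members in embryos and cerebella, in CPM plus 0.1 on a log axis, with 1 point for each library and a line at the group mean. For *Bst2* the 3 *Hbs1l*-/- embryos (46.8 to 53.0 CPM) lie above the 3 wild-type libraries (27.0 to 34.9 CPM), and in cerebella the groups overlap for every member tested.

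Control levels are given by tissue, but the labels place embryos, cerebella and MEFs in different batches, and the cerebellum fragments were cut from a narrower size range, so tissue and batch cannot be told apart. *Bst2* had 27.0 to 34.9 CPM in wild-type embryos and a mean of 26.7 CPM (SD 5.86, n = 3) in MEF controls of the *Pelo* pool, which overlap, and 8.36 CPM (SD 0.187, n = 3) in control cerebella. *Ifit2* was highest in MEF controls (10.9 CPM, SD 0.910, n = 3), followed by cerebella (4.95 CPM, SD 1.26, n = 3) and embryos (3.18 CPM, SD 0.644, n = 3), and the ranges of the last pair overlap. *Ifit1* had 5.55 CPM (SD 2.32, n = 3) in MEF controls, 1.27 CPM (SD 0.195, n = 3) in cerebella and no footprint in embryos. *Rsad2* was highest in cerebella, with 2.51 CPM (SD 0.725, n = 3) against 0.662 CPM (SD 0.456, n = 3) in MEF controls and 0.510 CPM (SD 0.473, n = 3) in embryos. In MEF controls 2 of the 10 members, *Ifit1* and *Ifit2*, lay above every embryo and cerebellum control library, although with counts over the library total *Ifit1* overlapped in the *Upf2* pool (lowest MEF control 1.6, highest cerebellum control 1.72).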

How the data were processed

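Footprint counts per gene over coding exons were deposited by the authors, who removed ribosomal and other structural RNA reads with Bowtie2 2.2.3, mapped the rest to mm10 with HISAT2 2.1.0 (versions as in the submitters' processing notes) and counted them with featureCounts. RNA values per transcript were deposited by the authors as estimated counts and TPM from kallisto 0.42.4, and 1 more *Pelo*-/- RNA library that the authors set aside as an outlier is not used here. Here transcripts were summed per gene and estimated counts rounded. Levels are CPM with TMM scaling for footprints and TPM for RNA. Each comparison was fitted over all genes with edgeR 4.0.16 (R 4.3.3; quasi-likelihood test, filterByExpr, Benjamini-Hochberg adjustment, threshold 0.05), with DESeq2 1.42.0 as an alternative. TE is the assay by genotype interaction in a fit of both assays. The fitting code was tested on simulated data. Counting intervals are exact at 95%. They and the limit of 3 counts for a count of 0 cover counting error only. The members and lists were chosen with earlier results of these data known. Genes named are the members, the targeted genes, pathway genes a result turns on and the 5 genes most like the members in the MEF footprints. Alternatives were RLE factors, other filters, a replicate block, pooled controls, all RNA libraries in 1 fit and leaving out each library. Mapped positions are from GRCm38 annotation (Gencode M21). Some listed genes are not reported here.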

Additional observations from a re-analysis of the deposited data

Results flagged for a closer look

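*Ifit1*, *Isg15* and *Rsad2* stood out because footprints lay on opposite sides of the control mean in *Hbs1l*-/- MEFs and in *Hbs1l* cKO cerebella. On the log2(CPM + 0.1) scale every *Hbs1l*-/- MEF library was above the mean of its controls, and every cKO cerebellum library was below the mean of its controls. *Ifit1* differed by 3.56 in MEFs and -0.31 in cerebella, 3.86 apart. *Isg15* differed by 3.70 and -0.51, 4.21 apart. *Rsad2* differed by 2.50 and -0.76, 3.26 apart. The difference between the tissues was not tested, and none of the cerebellum values passed its own test. *Hbs1l* footprints were 10.6 to 12.7 CPM in cKO cerebella and 1.68 to 2.96 CPM in *Hbs1l*-/- MEFs.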

How the results depend on the processing

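The count of members called in embryos was 1 in place of 0 with DESeq2, without a filter and with the replicate block (*Bst2*, edgeR adjusted p = 0.038), and 0 to 1 when leaving out 1 library. In *Pelo*-/- RNA it was 0 in place of 1 with the replicate block and 0 to 2 when leaving out 1 library. For TE in the labelled *Upf2*-/- libraries it was 3 to 8 when leaving out 1 library. Over all alternatives the footprint counts were 7 to 9 in *Hbs1l*-/-, 10 to 10 in *Pelo*-/- and 8 to 10 in labelled *Upf2*-/- MEFs, and the RNA counts 7 to 9 in *Hbs1l*-/- and 6 to 9 in labelled *Upf2*-/- MEFs. TE counts were 0 to 0 in *Hbs1l*-/- and 9 to 10 in *Pelo*-/- MEFs. Values near 0 changed sign. *Ifit2* RNA labelled *Upf2*-/- was -0.0033 with DESeq2, -0.0026 with RLE factors, -0.01 with the replicate block and -0.15 to 0.15 when leaving out 1 library. In cerebella, leaving out 1 library gave -0.47 to 0.03 for *Ifit3*, -0.26 to 0.06 for *Bst2* and -0.83 to 0.09 for *Ifi44*. For TE in *Hbs1l*-/- MEFs it gave -0.49 to 0.46 for *Ifit1*, -0.84 to 0.54 for *Ifit3b*, -0.67 to 0.15 for *Isg15*, -0.24 to 3.18 for *Mx2*, -1.03 to 0.06 for *Rsad2* and -0.84 to 0.39 for *Ifi44*. The cause of these changes was not tested. The median of all genes was -0.014 in *Pelo*-/- RNA and 0.051 in *Pelo*-/- TE, and without a filter it was -0.16 and 0.14. Replicate numbers of the labels did not pair the samples, since no comparison had every same-numbered correlation over 0.1. In embryos each *Hbs1l*-/- library correlated best with its own number (0.076 to 0.106), which is a hint from the data and not from the design. Members with few counts, such as *Mx1* and *Mx2* in controls, are limited by depth. With *Ifit3* and *Ifit3b* summed as 1 gene the footprint difference was 2.63 in *Hbs1l*-/- and 5.97 in *Pelo*-/- MEFs.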
